A study of Mus musculus with 12 samples.

Results

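A joint begins as an interzone, a band of flattened cells that appears across a cartilage condensation and stops it from becoming one continuous rod. Cells of the interzone switch off cartilage matrix genes and go on to form articular cartilage, ligament and synovial lining. Growth factors of the BMP family, transcription factors and enzymes that act on signals outside the cell mark this band in the digits, and the E12.5 autopod, the hand or foot plate of the embryo, is a stage at which digit rays are condensing. The genes described here are Gdf5, Gdf6, Erg, Osr1, Osr2, Enpp2, Sulf1, Barx1 and Barx2. They were taken as the Affymetrix probe sets annotated to exactly 1 of these 9 genes, and 11 of 45265 probe sets met that rule, 6 from the A design and 5 from the B design. They covered 7 of the 18194 genes named on the 2 designs. The annotation used here gave no probe set to Gdf6, a BMP-family ligand related to Gdf5, or to Enpp2, a secreted enzyme that makes lysophosphatidic acid, and both were not analysed here.

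RNA came from autopods of wild-type mouse embryos at embryonic stage E12.5, with 3 hindlimb samples (numbered 12, 14 and 26) and 3 forelimb samples (numbered 11, 13 and 25), each hybridised to an A and a B array of the MOE430 GeneChip set. The sources used here give neither a strain nor how many animals went into a sample, and do not say whether samples came from different embryos, so p-values cover only the spread among these samples, which may be technical. On the A array the limb of forelimb 11 rests on the letter in its title, since its tissue label names the autopod alone. Signals are given after scaling each array to a 2% trimmed mean of 500. Differences are log2(signal + 32), hindlimb minus forelimb, with n = 3 samples per limb, and this scale understates the change of dim probe sets. Each design was tested by itself, and levels of different probe sets are not compared, apart from 1 within-array ratio of Osr1 to Osr2. Summed signals of gene lists add different probe sets of a design, so the brightest weigh most in them.

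The known limb markers matched the limb labels on both designs. Tbx5, the forelimb T-box factor, had signals of 29.3 to 174 in hindlimb samples and 1145 to 1381 in forelimb samples. Tbx4, its hindlimb counterpart, had 4497 to 5558 in hindlimb and 1124 to 1251 in forelimb on the B array. Prrx1, a factor of limb mesenchyme, and the distal limb factors Hoxd13 and Hoxa13 passed the signal filter, which asks for a scaled signal of 100 or more on 3 or more of the 6 arrays, with overlapping limbs. The Gapdh control probe sets, which compare the 3' end of the transcript with its 5' end and so reflect RNA quality, gave log2 ratios on the A array of -0.30 to -0.26 in hindlimb and -0.24 to -0.08 in forelimb, without overlap. The beta-actin ratios of the A array, 0.22 to 0.27 in hindlimb and 0.12 to 0.26 in forelimb, overlapped, as did both ratios on the B array.

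No joint interzone probe set passed the threshold in the limb comparison (limma, Benjamini-Hochberg adjusted p under 0.05 over all tested probe sets of a design). The signal filter left 4 member probe sets of the A array and 3 of the B array for testing, and 0 were called on either. Across the whole A array 0.0326% of 15338 tested probe sets were called, and across the B array 0.0117% of 17145. At an unadjusted p under 0.05, 2 of 4 members on the A array (Osr1 and Gdf5) were lower in hindlimb, where 3.69% of all tested probe sets lay on that side. On the B array 1 of 3 (a Sulf1 probe set) was higher in hindlimb, against 2.33% of all tested, and 1 of 3 (Erg) was lower, against 3.21%. All hindlimb samples lay below all forelimb samples on 3 of 4 members of the A array, where 6.10% of all tested probe sets did so, and on 1 of 3 of the B array, where 6.14% did. All hindlimb samples lay above on 1 of 3 members of the B array, against 4.81% of all tested there. All 4 differences on the A array were negative, as were 52.2% of all, with a median of -0.40 against -0.01 over all tested probe sets. Of the 7 tested members 6 had a signal of 100 or more on all 6 arrays, and Barx1 had it on 5.

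**Figure D1:**
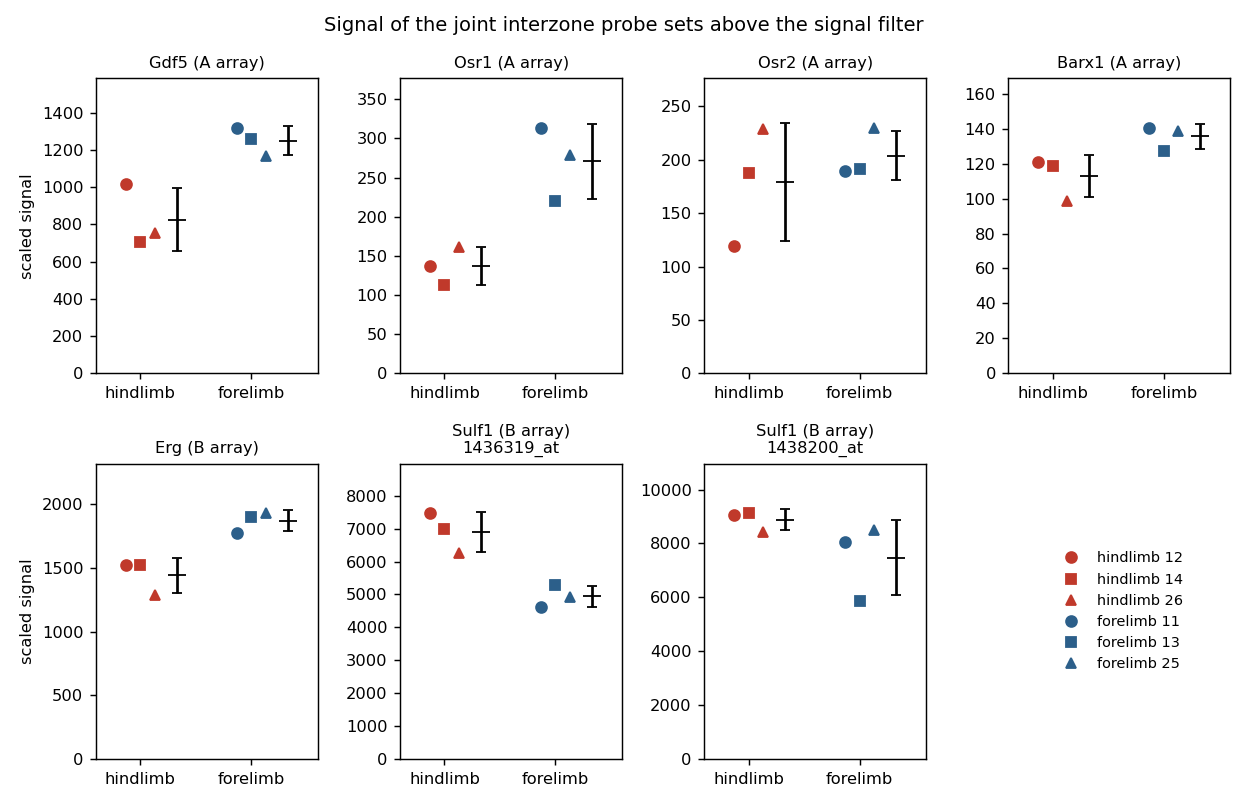
Scaled signal (linear axis from 0) of the 7 joint interzone probe sets above the signal filter, one point per sample, with the mean ± SD of each limb beside the points (n = 3). Gdf5, Osr1, Barx1 and Erg have every hindlimb point below every forelimb point, one Sulf1 probe set has every hindlimb point above, and Osr2 and the other Sulf1 probe set overlap.

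Gdf5, the secreted BMP-family ligand whose stripes mark the future joints of the digits, was measured by 1 probe set on the A array. Its signal was 1017, 704 and 754 in hindlimb samples 12, 14 and 26, against 1319.7, 1261 and 1168 in forelimb samples 11, 13 and 25. All hindlimb samples lay below all forelimb samples, and hindlimb 12 was the one nearest to the forelimb. The means were 825 ± 168 in hindlimb and 1249.7 ± 76.4 in forelimb (SD, n = 3 each), so the hindlimb mean was 66.0% of the forelimb mean. The difference was -0.60 ± 0.15 (SE), with a 95% interval of -0.93 to -0.26 that is not adjusted for the number of probe sets. It missed the threshold (limma adjusted p = 0.485, unadjusted p = 0.00231) and stood 73rd by p among the tested probe sets. Leaving out single samples gave differences from -0.75 without hindlimb 12 (limma adjusted p = 0.134) to -0.50 without hindlimb 14 (limma adjusted p = 0.629). The highest limma adjusted p of these fits was 0.852, without forelimb 25, and 0 of them passed the threshold. In bulk tissue, fewer cells of a type and less RNA per cell cannot be told apart, for Gdf5 and for every gene below.

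Osr1 and Osr2, the odd-skipped related zinc finger factors, are expressed in limb connective tissue and in forming joints, and mice lacking both fail to form several of their synovial joints. Osr1 had signals of 137, 113 and 162 in hindlimb 12, 14 and 26, against 314, 219.9 and 278 in forelimb 11, 13 and 25. The limbs did not overlap, with 162 as the highest hindlimb signal and 219.9 as the lowest in forelimb. The hindlimb mean of 137 ± 24.6 was 50.7% of the forelimb mean of 271 ± 47.5 (SD, n = 3 each). This was the largest difference among the 7 tested members, at -0.84 ± 0.18 (SE, 95% interval -1.24 to -0.44), and 0.313% of the tested probe sets of the A array had a lower one. It did not pass (limma adjusted p = 0.303, unadjusted p = 0.000770, 39th by p). The size depends on the pseudocount, from -0.97 with 1 to -0.64 with 100, because the hindlimb signals are low.

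Osr2 did not share this pattern on its A array probe set. Its signals were 119.7, 188 and 229 in hindlimb 12, 14 and 26, against 189.8, 191 and 230.2 in forelimb 11, 13 and 25. Hindlimb 14 and 26 lay within or next to the forelimb range, and hindlimb 12 alone was low. The difference was -0.19 ± 0.21 (SE, limma adjusted p = 0.978), with a 95% interval of -0.65 to 0.27, and turned to 0.03 without hindlimb 12. Hindlimb 12 was thus the lowest hindlimb sample for Osr2, while it was the highest for Gdf5. The Osr2 probe set on the B array had signals of 41.4, 11.4 and 12.9 in hindlimb and 15.0, 13.6 and 30.7 in forelimb, all below the filter, and was not tested. The within-array log2 ratio of Osr1 to Osr2 was 0.16, -0.60 and -0.43 in hindlimb 12, 14 and 26, against 0.64, 0.17 and 0.24 in forelimb 11, 13 and 25. The limbs did not overlap, by a narrow margin between hindlimb 12 and forelimb 13, and the mean ratio differed by -0.64 (hindlimb minus forelimb). The exact two-sided permutation p was 0.1, the smallest that 3 against 3 samples can give, and this was the 1 paralog pair with both probe sets above the filter. The data therefore cannot place the difference between the paralogs past a threshold of 0.05.

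Barx1 and Barx2 are paralogous homeobox factors, and Barx1 is known from chick limbs to mark joint-forming mesenchyme and to hold back cartilage differentiation there. Barx1 was dim, with signals of 121, 119 and 98.8 in hindlimb 12, 14 and 26, against 141, 127 and 139 in forelimb 11, 13 and 25. The limbs did not overlap, but the gap was 121 to 127. The difference of -0.21 ± 0.17 (SE, 95% interval -0.59 to 0.17) did not pass (limma adjusted p = 0.965, unadjusted p = 0.241) and was -0.14 without hindlimb 26. Its standard error was near the median over the A array, 0.16. Barx2 had signals of 6.4 to 7.3 in hindlimb and 8.0 to 14.7 in forelimb, below the pseudocount and the filter, and no fold is given for it. Its ratio to Barx1 was left out for the same reason.

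Erg, an ETS-family transcription factor, marks articular chondrocyte precursors in forming joints and is also a factor of endothelial cells. Its B array probe set had signals of 1521, 1523 and 1284 in hindlimb 12, 14 and 26, against 1776, 1902 and 1932 in forelimb 11, 13 and 25. All hindlimb samples were lower, with hindlimb 26 the lowest. The means were 1443 ± 137 in hindlimb and 1870.0 ± 82.6 in forelimb (SD, n = 3 each), a hindlimb mean of 77.1% of that in forelimb. The difference was -0.37 ± 0.13 (SE, 95% interval -0.65 to -0.09; limma adjusted p = 0.883, unadjusted p = 0.0149). The A array probe set of Erg was read at 19.9, 22.6 and 17.3 in hindlimb 12, 14 and 26, against 95.8, 101.7 and 20.0 in forelimb 11, 13 and 25. On that probe set forelimb 25 lay among the hindlimb samples, although on the B array the same numbered sample had the highest Erg signal. It reached a signal of 100 on 1 of 6 arrays and was not tested.

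Because Erg belongs to 2 cell types, endothelial genes are given beside it, mostly from the A array, though the tested Erg probe set is on the B array. The 1 endothelial gene tested on the B array, Flt1, had 0.19 ± 0.23 (SE) with overlapping limbs. On the A array 11 of 12 such genes were tested and Tie1 was below the filter. None was at 0 on any array, 0 were called, and 1 had an unadjusted p under 0.05, on the side of higher values in hindlimb, where 1.85% of all tested probe sets lay. Their summed signal was 3775 to 3951 in hindlimb and 3714 to 4034 in forelimb, overlapping, and 7 of 11 differences were negative with a median of -0.07. Fli1, the ETS factor most closely related to Erg, had the smallest p, with a difference of 0.48 ± 0.20 (SE, limma adjusted p = 0.855). Its sign was opposite to that of Erg on the B array. Its signals were 712, 750.1 and 571 in hindlimb 12, 14 and 26, against 351, 467 and 641 in forelimb 11, 13 and 25. The VEGF receptor gene Flt1 (-0.34, with 0.33 on another probe set), the adhesion molecule gene Pecam1 (-0.22) and the guidance receptor gene Robo4 (-0.14) came next.

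Sulf1, a cell-surface enzyme that trims sulfate groups from heparan sulfate chains and so alters how growth factors are held and presented, was the one member with higher values in hindlimb. It had 3 probe sets on the B array, 2 of them tested. On probe set 1436319_at the signals were 7477, 6988 and 6247 in hindlimb 12, 14 and 26, against 4629, 5275 and 4919 in forelimb 11, 13 and 25. All hindlimb samples were above all forelimb samples. The means were 6904 ± 619 in hindlimb and 4941 ± 324 in forelimb (SD, n = 3 each), 1.40-fold apart. The difference was 0.48 ± 0.12 (SE, 95% interval 0.22 to 0.74; limma adjusted p = 0.747, unadjusted p = 0.00189), and 4.76% of all tested probe sets of the B array had a higher one.

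The other bright Sulf1 probe set, 1438200_at, had signals of 9063, 9126 and 8424 in hindlimb 12, 14 and 26, against 8039.7, 5875 and 8493 in forelimb 11, 13 and 25. The limbs overlapped, since forelimb 25 exceeded hindlimb 26, and forelimb 13 stood far below the other forelimb samples. Its difference was 0.26 ± 0.15 (SE, 95% interval -0.06 to 0.58; limma adjusted p = 0.904), and 0.10 without forelimb 13. On 1436319_at forelimb 13 was the highest forelimb sample, so the probe sets of this gene order the forelimb samples differently. The third probe set, 1446416_at, had signals of 22.1 to 44.3 in hindlimb and 32.9 to 37.1 in forelimb, below the filter, and was not tested.

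**Figure D2:**
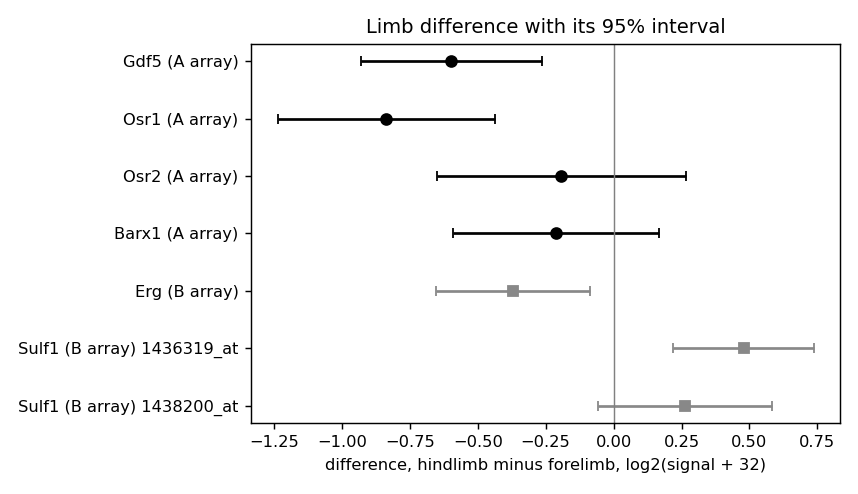
Difference in log2(signal + 32), hindlimb minus forelimb, for the 7 tested joint interzone probe sets, with the 95% interval from the limma fit (black circles, A array; grey squares, B array). The intervals of Gdf5, Osr1, Erg and one Sulf1 probe set do not include 0 before adjustment for the number of probe sets, from -0.84 for Osr1 to 0.48 for Sulf1.

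The place of the members among all tested probe sets differed by gene. On the A array 1.15% of the tested probe sets had a lower difference than Gdf5, 14.3% a lower one than Barx1 and 16.6% a lower one than Osr2. On the B array 11.6% had a lower difference than Erg, and 13.4% a higher one than Sulf1 by its 1438200_at probe set. Differences spread more widely on the B array, where the median standard error was 0.23 against 0.16 on the A array.

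**Figure D3:**
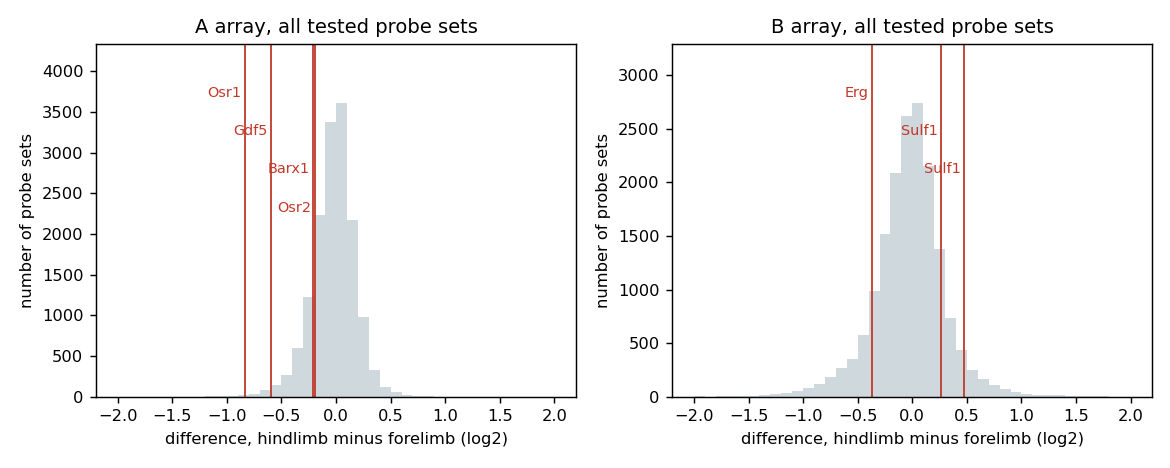
Number of tested probe sets by difference (hindlimb minus forelimb, log2) on each array, in bins 0.1 wide with values beyond -2 or 2 counted in the end bins, and red lines at the joint interzone members. Osr1 and Gdf5 lie in the lower tail of the A array, while Barx1 and Osr2 lie closer to its centre, all 4 left of it, and on the B array Erg lies to the left and both Sulf1 probe sets to the right of the centre.

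**Figure D4:**
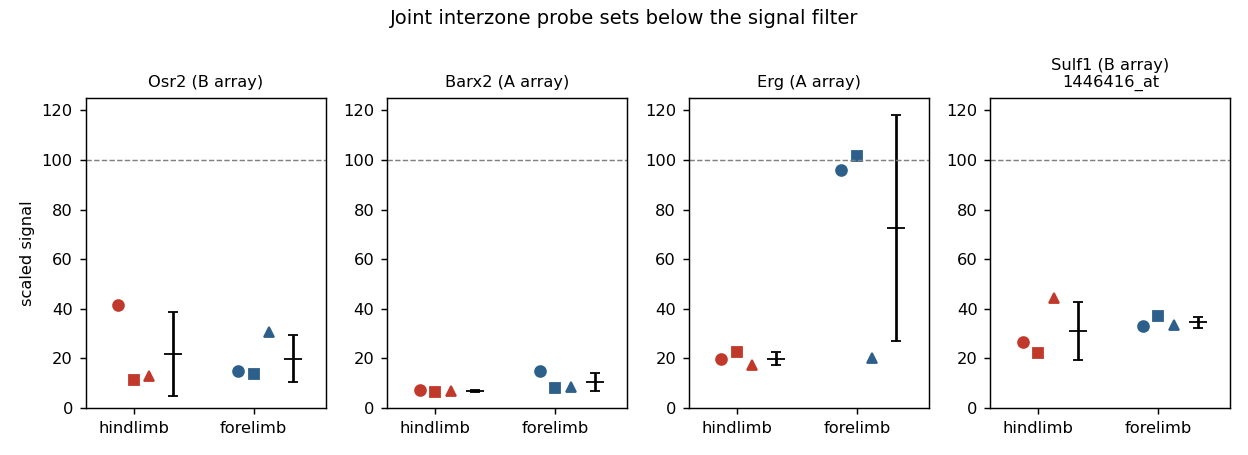
Scaled signal of the 4 joint interzone probe sets below the signal filter, one point per sample with the mean ± SD of each limb (n = 3), and the filter's signal of 100 as a dashed line. The A array probe set of Erg is at 95.8 and 101.7 in forelimb 11 and 13 and at 20.0 in forelimb 25, and Osr2, Barx2 and the third Sulf1 probe set have signals of at most 44.3.

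Other genes of joint formation, which include the Wnt ligands and BMP signalling components that act with Gdf5, gave no call. Of 20 such genes 15 were tested on A arrays and 8 on B arrays, with 0 past the threshold in either direction. At an unadjusted p under 0.05, 3 of 15 on the A array were lower in hindlimb, against 3.69% of all tested probe sets, and 0 were higher. On the B array there were 0 of 8. On the A array 11 of 15 differences were negative (median -0.15) and on the B array 6 of 8 (median -0.16), against medians of -0.01 over all tested probe sets of each. Ihh, the hedgehog ligand of early chondrocytes, had 169.9, 145 and 139 in hindlimb 12, 14 and 26 and 250.1, 217 and 224 in forelimb 11, 13 and 25, a difference of -0.52 ± 0.15 (SE, limma adjusted p = 0.619). Dcx, the microtubule protein doublecortin, which is also a neuronal gene and is known from articular chondrocytes, had -0.56 ± 0.18 (SE, limma adjusted p = 0.633; -0.53 and -0.11 on its other probe sets). Trps1, a zinc finger repressor expressed in joint regions, had -0.38 (A array) and -0.24 (B array). Wnt4, a ligand expressed in the interzone, had -0.45 (B array) and -0.26 (A array), and its limbs overlapped on each. Wnt9a, Wnt16, Bmpr1b (the type I receptor preferred by Gdf5) and Prg4 (the joint lubricant lubricin) were below the filter on the A array. Where the B array measured them, Wnt9a had -0.08 and Bmpr1b -0.25 (0.19 on another probe set), with overlapping limbs by the brightest probe set.

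Genes of lysophosphatidic acid signalling and of heparan sulfate, the pathways in which Enpp2 and Sulf1 act, likewise had 0 calls, and 0 at an unadjusted p under 0.05. Among 8 tested on the A array 5 differences were negative (median -0.04), and among 7 on the B array 3 were (median 0.09). The smallest p belonged to Hs6st1, an enzyme that adds sulfate at the position Sulf1 removes it from, at -0.47 ± 0.22 (SE, limma adjusted p = 0.919, limbs overlapping). Lpar2, a lysophosphatidic acid receptor, had 0.50 on the B array, where forelimb 11 was at 87.1 and the other 5 samples at 288 to 304. The heparan sulfate polymerase genes Ext2 (-0.31 on the B array, with 0.26 on another probe set) and Ext1 (0.16 on the A array) followed. Ext2 had 0.001 on the A array and Ext1 -0.06 on the B array. Sulf2, the paralog of Sulf1, was looked up after its values were seen. It had 0.14 by its brightest probe set of the B array (-0.03 by another) and -0.01 by that of the A array, and the limbs overlapped on both of these.

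Summed signals of several marker lists also separated the limbs on the A array, the array of Gdf5 and Osr1. The summed signal of 14 tested cartilage genes of 16 (Matn1 and Cnmd below the filter) was 10971 to 12646 in hindlimb and 12745 to 14263 in forelimb. Values included the matrix genes Matn4 (-0.79), Acan (-0.72), Col2a1 (-0.61) and Col9a2 (-0.78). Of the 14 differences 10 were negative and 4 positive (median -0.33), and 0 passed the threshold. At an unadjusted p under 0.05, 6 of 14 were lower in hindlimb, against 3.69% of all tested probe sets. The positive ones, named after their values were seen, all had overlapping limbs. They were Col9a1 (0.19, with 0.20 on another probe set), Hapln1 (0.07, -0.08 on another), Sox6 (0.07, -0.07 on another) and Sox5 (0.06, -0.21 to 0.12 on others). On the B array Matn4, Acan, Col2a1 and Col9a2 had no probe set. The 5 tested cartilage genes there, Sox5, Sox6, Hapln1, Matn3 and Sox9, had a median of 0.15 and overlapping sums. That median was the value of Sox9, 0.15 ± 0.75 (SE), at signals of 9.3 to 174. On the A array Sox9 had -0.31 (-0.27 on another probe set). All 8 ectoderm genes were tested, with sums of 3354 to 3944 in hindlimb and 4055 to 5184 in forelimb but 4 negative and 4 positive differences. The basal keratins Krt15 (-1.38), Krt14 (-0.83, with -0.66 and 0.08 on its other probe sets) and Krt5 (-0.40) were negative, while the simple keratin Krt8 had 0.28. Of the remaining 4, named after their values were seen, Krt18 had 0.31, the basal factor Trp63 0.09 and the adhesion genes Cdh1 0.01 and Epcam -0.01, all with overlapping limbs. For muscle, 5 of 8 genes were tested (Myf5, Pax3 and Pax7 below the filter), with sums of 1462 to 1587 in hindlimb and 1832 to 2376 in forelimb. Mef2c had -0.58, Actc1 -0.40, Myog -0.30 and Des -0.20 (-0.95 on another probe set). For blood, 5 of 7 genes were tested (Ptprc and Fcgr1 below the filter), with sums of 31968 to 35444 in hindlimb and 28681 to 31390.2 in forelimb. The globins Hbb-bh1 (0.32, with 0.14 and 0.18 on its other probe sets) and Hbb-y (0.18, with -0.05 and 0.06 on others) and the macrophage receptor Csf1r (-0.16, with 0.10 and 0.11 on others) had overlapping limbs, apart from Hbb-y, and Fcgr1 had -0.31 on the B array. In none of these lists was a gene at 0 on any array, and 0 genes were called. At an unadjusted p under 0.05, 3 of 8 ectoderm genes and 1 of 5 muscle genes of the A array were lower in hindlimb. On that side lay 3.69% of all tested probe sets. Of the 5 blood genes 2 were higher in hindlimb, against 1.85% of all tested. The part of these tissues, and of the Gapdh ratio above, in the values of Gdf5, Osr1 and Barx1 was not tested.

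**Figure D5:**
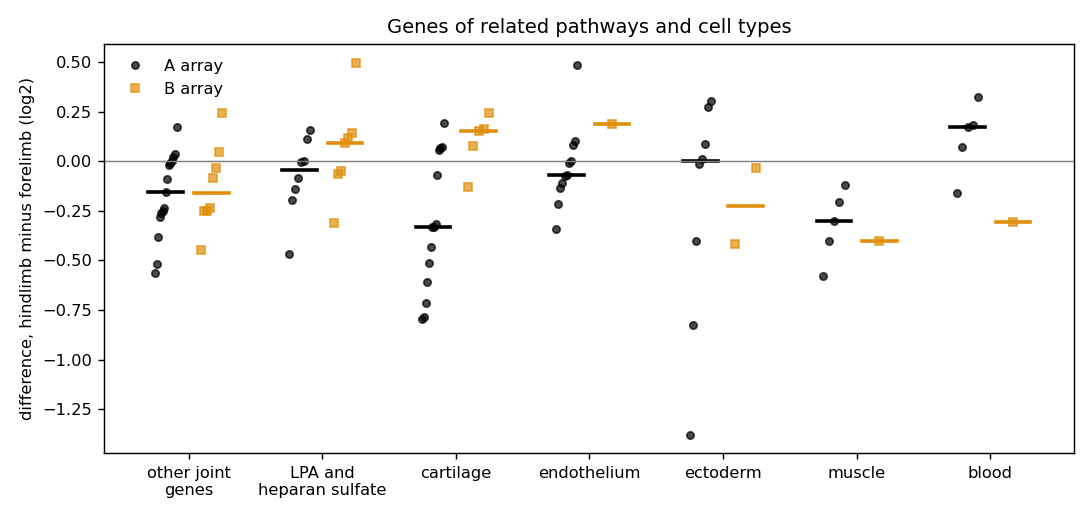
Difference in log2(signal + 32), hindlimb minus forelimb, for each tested gene of 7 lists by its brightest probe set (black circles, A array; orange squares, B array), with the median of each list as a bar. The 14 cartilage genes of the A array have a median of -0.33, and blood genes of the A array have 0.17. The 5 cartilage genes of the B array, without Matn4, Acan, Col2a1 and Col9a2, have a median of 0.15.

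The genes most like Gdf5 over the 6 A arrays, by Pearson correlation of log2(signal + 32) with its probe set, were Siah2, a ubiquitin ligase (r = 0.994), Pygl, the liver form of glycogen phosphorylase (r = 0.991), and Sema3e, a secreted guidance factor (r = 0.985). Sema3e had 113, 27.7 and 36.3 in hindlimb 12, 14 and 26 and 166, 139 and 119 in forelimb 11, 13 and 25. Hindlimb 12 lay nearest to the forelimb, an order shared with Gdf5 because Sema3e was picked for its likeness to Gdf5 on these arrays. For Osr1 they were Klf3, a zinc finger repressor (r = 0.986), Gnai1, a G protein subunit (r = 0.985), and Sgms1, an enzyme of sphingomyelin synthesis (r = 0.981). None of these 6 genes passed the threshold (limma adjusted p of 0.626 to 0.972). With 6 arrays and 15338 probe sets such values describe the ranking alone.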

How the data were processed

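Each deposited table holds intensity values per probe set, which the labels call MAS5.0 signal (that of forelimb 11 on the A array names no software), linear and unlogged. The authors had set all arrays of a design to one target: the 2% trimmed mean was 350.1 for A arrays and 70.0 for B arrays. The sources used here do not give the software settings. Arrays were rescaled to a trimmed mean of 500, which multiplied B signals by 7.14 and A signals by 1.43, so the filter of 100 on at least 3 arrays is laxer on the B array. Gene names came from the platform annotation, updated by gene identifier through a RefSeq table of GRCm38.p6. Of 22690 A probe sets 20393 had 1 symbol, 691 several and 1606 none (20364 found in the table); of 22575 B probe sets these were 14674, 245, 7656 and 14499. Control probe sets (64 per design) did not enter the tests. Hindlimb and forelimb were compared with limma 3.58.1 in R 4.3.3 (eBayes with trend, two-sided) and the fit was tested on simulated data. The Osr1 to Osr2 ratio used exact permutation over samples. Figures were drawn with matplotlib 3.10.9.

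The members and gene lists were chosen with earlier results of these data known. All member genes are named, and from each other list the 4 genes of smallest p where none was called, by each gene's brightest tested probe set, plus the 3 genes most correlated with Gdf5 and with Osr1. Further cartilage and ectoderm genes and Sulf2 were named after their values were seen. Genes below the filter are named beyond this rule, and for Wnt9a and Bmpr1b, below it on the A array, B array values are given. Alternatives were other pseudocounts, filters and scalings, no trend, array weights, a replicate block, one probe set per gene, adjustment over both designs and leaving out each sample with the filter kept. The planned ratios of Gdf5 to Gdf6 and of Barx1 to Barx2 are not given, as Gdf6 had no annotated probe set and Barx2 was below the filter, and 1 gene of the blood list is not reported here. The number of arrays limits the precision.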

Additional observations from a re-analysis of the deposited data

How the results depend on the processing

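No joint interzone probe set passed the threshold under any of the 17 alternatives, on either array. Of 116 differences over the 7 tested members, 115 kept their direction. Other filters, no trend, the replicate block, keeping the brightest probe set of a gene and adjustment over both designs leave a member's difference unchanged. Only the other pseudocounts and scalings, array weights and left-out samples could change its direction. The exception to the kept direction was Osr2 on the A array. It ranged from -0.36 to 0.0281 with a sample left out and turned positive without hindlimb 12. The lowest adjusted p reached was 0.134 for Gdf5, without hindlimb 12, and 0.202 for Osr1, with the replicate block. Osr1 ranged from -0.97 to -0.64, Gdf5 from -0.75 to -0.50 and Erg from -0.41 to -0.29. Sulf1 ranged from 0.38 to 0.55 on 1436319_at and from 0.10 to 0.37 on its brighter probe set 1438200_at. The limb difference in the log2 ratio of Osr1 to Osr2 stayed between -0.87 and -0.49. With quantile normalization its exact permutation p was 0.2, above the 0.1 that limbs without overlap give. The Barx1 to Barx2 ratio was not run, since Barx2 was below the filter.

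Over all probe sets, the 5 calls of the A array became 1 without the filter, 14 with array weights and 8 with the replicate block, and ranged from 3 to 9 with a sample left out. The 2 calls of the B array became 1 without the filter, 0 without the trend (871 at an unadjusted p under 0.05) and 4 with the replicate block, and ranged from 1 to 4 with a sample left out. The block paired consecutive sample numbers, which the labels do not tie to a shared source, and which the main fit does not use. Deviations of paired samples correlated at 0.08 to 0.21 on the A array and 0.00 to 0.05 on the B array. Other combinations of a hindlimb and a forelimb sample gave -0.15 to 0.06 on the A array and -0.06 to 0.02 on the B array. Every paired value thus exceeded every other one on the A array, but not on the B array. The cause of the changes in the number of calls was not tested.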
